A study of Rattus norvegicus with 16 samples.

Results

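Macrophages and other white blood cells enter dystrophic muscle, and 35 genes that mark them were followed here in the tibialis anterior of rats, ordered by the cell state each gene is used to recognise. The genes were listed by symbol and textbook role, with earlier results of these data known: markers of resident-type macrophages (Lyve1, Folr2, Timd4, Cd163 and Mrc1), of monocyte-derived cells (Ccr2) and of lipid-associated macrophages (Spp1, Gpnmb, Trem2 and Lgals3), 8 genes of macrophage identity, 7 phagocytic and innate receptors, 2 receptor adaptors and 8 genes found across leukocytes. Of the 35, 34 were matched by symbol among the 31141 genes of the table, Timd4 was not analysed here, and 31 passed the filter on low values, at least 1 FPKM in at least 4 libraries, which 12119 genes passed. FPKM corrects the fragments counted on a gene for its length and for the depth of the library, so levels of different genes can be set side by side.

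Messenger RNA was sequenced in 16 libraries of Wistar-Imamichi rats aged 9 months, in 3 groups. WT_ND held 4 libraries of wild-type rats on a normal diet (ND), DMD_ND 6 libraries of rats with the Dmd genotype on the same diet, and DMD_KD 6 libraries of Dmd rats given MCTKD from weaning. MCTKD is not spelled out in the labels and commonly stands for a ketogenic diet rich in medium-chain triglycerides. Dmd encodes dystrophin, the allele is not described in the labels, and no wild-type rats on MCTKD were among the groups. Whether every library is a different animal is not stated either, so the tests below measure the spread between libraries, part of which may be technical.

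Macrophages of muscle come from cells settled in the tissue and from blood monocytes that Ccr2, the receptor for the chemokine Ccl2, brings in. Csf1r, the receptor for the growth factors Csf1 and Il34, keeps the lineage alive, and Spi1 (PU.1) is its master transcription factor. Cells that have taken up debris and lipid switch on Spp1, Gpnmb, Trem2 and Lgals3, while Lyve1, Folr2, Cd163 and Mrc1 mark cells of the resident type. None of these markers is exclusive: myoblasts can make Gpnmb, fibroblasts and regenerating muscle can make Spp1 and Lgals3, and lymphatic endothelium makes Lyve1. In RNA from whole muscle, a change in the number of cells of a type and a change in RNA per cell cannot be told apart.

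Gene-assigned reads numbered 17125084 to 28116085 per library. Dmd itself lay at 4.13 to 11.9 FPKM in WT_ND, 1.37 to 1.98 in DMD_ND and 0.546 to 2.04 in DMD_KD, lower in every mutant library. Muscle fibre genes were abundant: 8 of them summed to 34770 to 138300 FPKM across the libraries. Libraries that stood apart were DMD_ND replicate 11, the highest of its group for 26 of the 31 tested genes but for 21.3% of all tested genes, and DMD_KD replicate 3, the lowest of its group for 12 of 31 about the share among all genes (37.8%), of which it was also the highest for 36.2%. WT_ND replicate 1 was the lowest of its group for 22 of 31 and for 22.2% of all genes. Deviations from the group followed gene length across 12119 genes in several libraries, given as a description, since genes are not independent. Spearman rho was -0.164, 0.22, -0.316 and 0.239 in WT_ND replicates 1, 3, 4 and 9. In DMD_KD it was -0.261 in replicate 3 and 0.145 in replicate 10. In DMD_ND it was -0.201 in replicate 9 and 0.124 in replicate 11. The remaining mutant libraries ran from -0.057 to 0.083. The 4 wild-type libraries enter both genotype comparisons, and the part of this relation in them was not tested.

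Promoters are shown for 5 of the genes because the set moved together between genotypes, as described below. RefSeq promoters on assembly GRCr8 were found for 27 of the 35 genes, and each sequence is the 250 bases before the start site, 5′ to 3′ on the gene's strand. The deposited table uses mRatBN7.2, so these coordinates do not belong to it. Capitals mark the PU box GAGGAA, bound by Spi1, the related 7-letter ETS core AGGAAGT, which can overlap it, and the AP-1 letters TGACTCA, each searched on both strands (on the other strand the first reads TTCCTC, the second ACTTCCT and the last TGAGTCA). Mrc1 was taken from the resident-type markers, Gpnmb and Spp1 from the lipid-associated ones, Csf2ra from the receptors and Cd53 from the genes shared by leukocytes. They do not represent their groups in the letters they hold, as given below.
Mrc1 promoter (chr17:82157475-82157724, + strand): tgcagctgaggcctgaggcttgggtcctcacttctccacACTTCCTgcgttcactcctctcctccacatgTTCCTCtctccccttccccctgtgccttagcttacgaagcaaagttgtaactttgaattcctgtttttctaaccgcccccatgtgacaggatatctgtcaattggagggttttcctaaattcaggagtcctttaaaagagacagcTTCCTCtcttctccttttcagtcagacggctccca
Gpnmb promoter (chr4:79340878-79341127, + strand): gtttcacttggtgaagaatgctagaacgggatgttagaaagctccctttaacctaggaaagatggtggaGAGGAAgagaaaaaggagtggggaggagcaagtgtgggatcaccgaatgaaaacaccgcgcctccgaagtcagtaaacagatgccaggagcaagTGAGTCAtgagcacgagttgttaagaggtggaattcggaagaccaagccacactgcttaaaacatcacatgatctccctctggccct
Spp1 promoter (chr14:5619805-5620054, - strand): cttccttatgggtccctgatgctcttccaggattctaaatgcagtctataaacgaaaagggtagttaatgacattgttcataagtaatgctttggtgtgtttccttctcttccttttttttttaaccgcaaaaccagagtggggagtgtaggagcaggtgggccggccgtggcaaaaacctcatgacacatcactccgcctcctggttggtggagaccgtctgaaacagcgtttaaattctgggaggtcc
Csf2ra promoter (chr14:118118-118367, - strand): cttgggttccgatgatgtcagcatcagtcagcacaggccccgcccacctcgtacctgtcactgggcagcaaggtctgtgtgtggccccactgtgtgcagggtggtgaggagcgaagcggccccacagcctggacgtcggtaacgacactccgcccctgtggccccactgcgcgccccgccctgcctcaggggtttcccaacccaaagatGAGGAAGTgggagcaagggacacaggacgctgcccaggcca
Cd53 promoter (chr2:197087897-197088146, - strand): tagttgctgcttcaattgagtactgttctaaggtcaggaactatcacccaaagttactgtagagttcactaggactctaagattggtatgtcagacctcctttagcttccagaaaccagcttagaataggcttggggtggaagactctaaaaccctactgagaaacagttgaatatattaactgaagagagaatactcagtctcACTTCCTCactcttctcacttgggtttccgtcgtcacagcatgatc
The PU box was in 13 of the 27 promoters (48.1%) and in 23.3% of all 33469 promoters of the same length. AGGAAGT was in 8 of 27 (29.6%, against 7.08% of all) and TGACTCA in 3 of 27 (11.1%, against 4.05%). The letters were chosen after the promoters had been looked at, so these shares are a description, and a match is not a bound site. The Mrc1 window held 2 PU boxes and 1 ETS core, the Cd53 and Csf2ra windows an ETS core overlapping a PU box, the Gpnmb window 1 PU box and 1 AP-1 match, and the Spp1 window none of the 3. Among the resident-type markers only Mrc1 had a PU box, and the windows of Lyve1, Folr2, Cd163 and Timd4 had none. Among the genes shared by leukocytes Cd53, Laptm5 and Ptprc had one, and Cd48, Cd52, Hcls1, Coro1a and Cd84 did not.

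What goes with the Dmd genotype on the normal diet is the question of DMD_ND against WT_ND. All 31 tested genes were higher in DMD_ND (limma, Benjamini-Hochberg adjusted p under 0.05), where 31.5% of all tested genes were. In no WT_ND library did Ccr2, Trem2, Mpeg1, Fcgr1a, Siglec1, Clec7a, Msr1, Ptprc, Hcls1 or Cd84 reach 1 FPKM. They passed the filter only through mutant libraries. Lyve1, Cd163, Mrc1, Spp1, Spi1, Adgre1, Cd68, Aif1, Cd14, Fcer1g and Cd53 were below 1 FPKM in at least 1 WT_ND library. These too needed mutant libraries to pass. For all genes of both kinds the filter itself favoured a higher direction in both comparisons with wild type. Folr2, Gpnmb, Lgals3, Csf1r, Lyz2, Csf2ra, Tyrobp, Laptm5, Cd48 and Coro1a reached 1 FPKM in every WT_ND library. In all 31 every DMD_ND library lay above every WT_ND library, which held for 26.8% of all genes. Ratios of the group means ran from 2.6 for Csf2ra to 181.7 for Spp1, with a median of 11.4. The Spp1 ratio was 54.1 without DMD_ND replicate 11. On the log2(FPKM + 1) scale, which understates changes of genes near 0, the median change was 2.52 against -0.04 for all tested genes. On this scale the lipid-associated markers had the highest median of the groups of more than 1 gene (3.96). Next came adaptors (2.90), macrophage identity (2.69), resident-type markers (2.32), genes shared by leukocytes (1.82) and receptors (1.64), and Ccr2 stood at 1.45. That order depends on the scale. By ratio of the group means, resident-type markers ran from 3.71 (Lyve1) to 9.74 (Folr2), below Ccr2 (12.1). Of the receptors, Siglec1 (10.8), Msr1, Cd14, Fcgr1a and Clec7a were also above them, and Csf2ra (2.6) was below. With every library scaled to the same sum (TPM), the median of all genes stood at 0.83 and that of the 31 at 3.58. All 31 stayed higher under that scaling, and the share of all tested genes called higher under it was not counted. Among genes called in either direction, the share that were higher went from 47.9% to 92.2%.

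**Figure D1:**
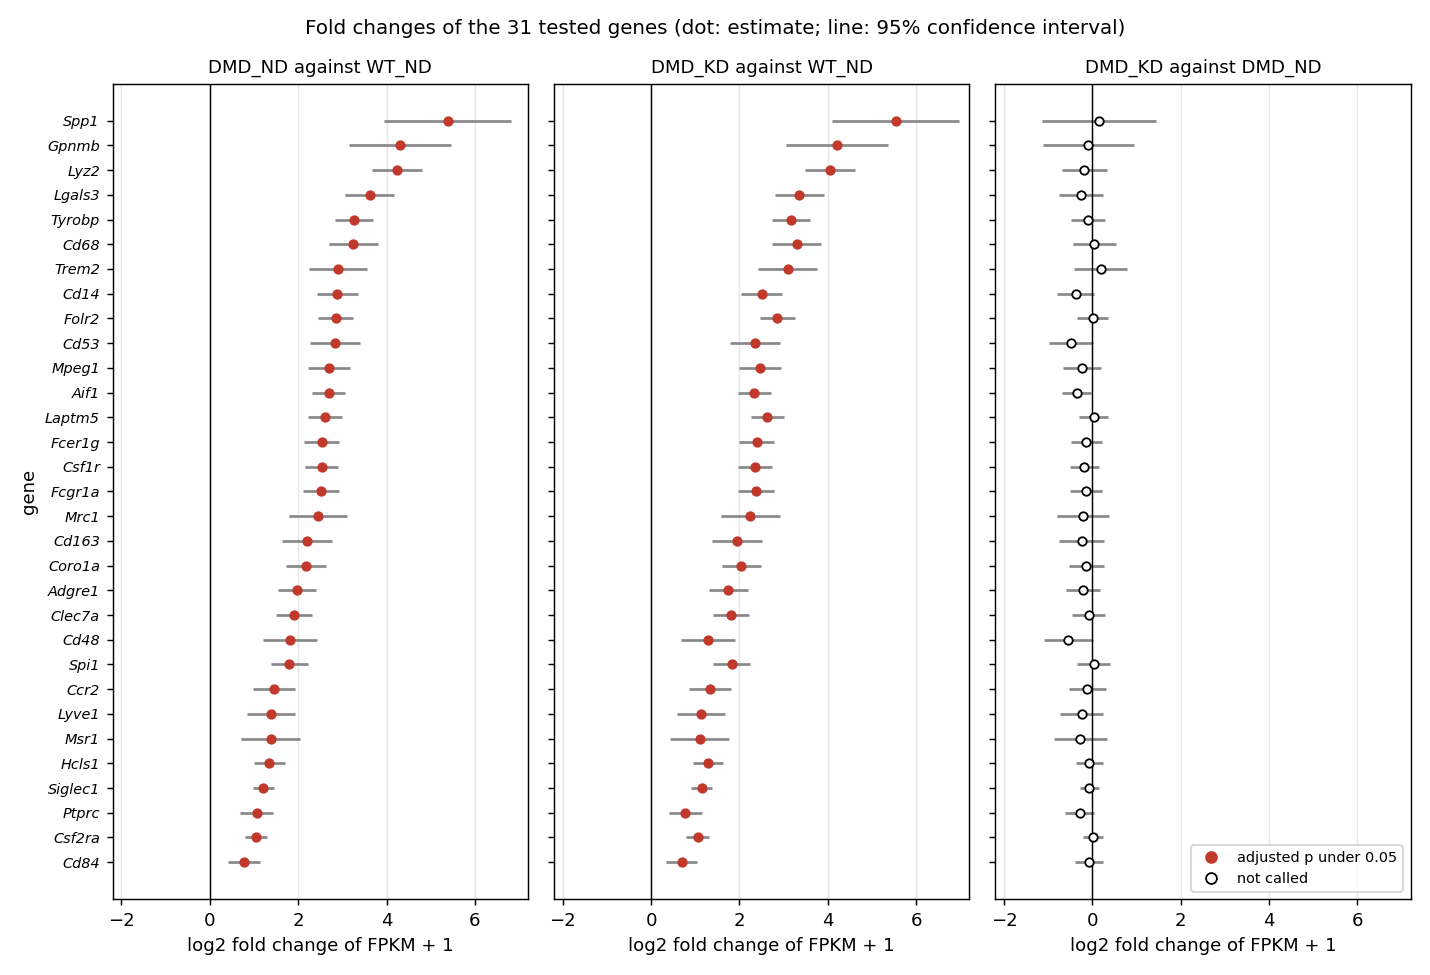
Log2 fold changes of FPKM + 1 for the 31 tested genes (x axis) in the 3 comparisons, with 95% confidence intervals as lines, filled dots for an adjusted p under 0.05 and open dots otherwise. All 31 dots are filled and right of 0 in both comparisons with WT_ND, and all 31 are open in DMD_KD against DMD_ND.

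Resident-type markers were higher in dystrophic muscle by different amounts, Folr2 most and Lyve1 least. For each gene, WT_ND values follow the order of replicates 1, 3, 4 and 9, and mutant groups are given by their lowest, median and highest library. Folr2, a folate receptor on tissue macrophages, was at 1.31, 2.67, 2.65 and 3.01 FPKM in WT_ND, at 17.3, 22.1 and 29.6 in DMD_ND and at 16.6, 24.6 and 32.1 in DMD_KD. Both mutant groups lay wholly above wild type and overlapped each other, and the log2 change in DMD_ND was 2.85 (SE 0.19, adjusted p = 1.99e-09). Mrc1, the mannose receptor CD206, was at 0.261, 1.51, 0.900 and 1.62 FPKM in WT_ND, at 6.68, 11.1 and 14.3 in DMD_ND and at 3.10, 10.1 and 13.9 in DMD_KD. Its DMD_ND change was 2.46 (SE 0.31, adjusted p = 2.92e-06), and the lowest DMD_KD library was replicate 3.

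Cd163, the scavenger receptor for haemoglobin bound to haptoglobin, was at 0.669, 1.99, 1.80 and 2.08 FPKM in WT_ND, at 8.14, 11.3 and 12.2 in DMD_ND and at 3.48, 10.1 and 13.5 in DMD_KD. The groups did not overlap with wild type, and the DMD_ND change was 2.19 (SE 0.27, adjusted p = 1.80e-06). Lyve1, a hyaluronan receptor, was at 0.208, 1.27, 1.73 and 1.98 FPKM in WT_ND, at 3.58, 4.24 and 7.19 in DMD_ND and at 2.06, 4.08 and 5.45 in DMD_KD. Its change was 1.38 (SE 0.26, adjusted p = 0.000160), the smallest of the 4 resident-type markers measured. The lowest DMD_KD library for Lyve1, replicate 3, was just above the highest wild-type one, and the deposited table types the Lyve1 entry (ENSRNOG00000063592, chromosome 1, 164962872 to 164976309 in mRatBN7.2) as a pseudogene, unlike the other 33.

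Ccr2, the single monocyte-derived marker, was low in wild type and reached a modest level in the mutants. It was at 0.0194, 0.227, 0.247 and 0.274 FPKM in WT_ND (1 to 21 reads per library), at 1.35, 2.22 and 3.57 in DMD_ND and at 0.582, 2.15 and 3.33 in DMD_KD. Every mutant library exceeded every wild-type one. The DMD_ND log2 change of 1.45 (SE 0.22, adjusted p = 2.22e-05) is held down by the pseudocount of 1, and the ratio of the mean FPKM was 12.1.

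Lipid-associated markers included the steepest rises of the set. Spp1 encodes osteopontin, a secreted protein that binds integrins and Cd44. It was at 1.75, 0.376, 1.16 and 0.471 FPKM in WT_ND, at 31.7, 57.9 and 771 in DMD_ND and at 43.4, 82.4 and 257.3 in DMD_KD. A single DMD_ND library, replicate 11, held 771 FPKM where the other 5 lay between 31.7 and 73.4, and every one of these was still above wild type. The log2 change was 5.38 (SE 0.68, adjusted p = 2.84e-06), and 4.72 without that library.

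Gpnmb, a glycoprotein of lysosomes and melanosomes, was at 1.63, 1.14, 2.23 and 23.8 FPKM in WT_ND, at 55.5, 73.5 and 266.2 in DMD_ND and at 69.1, 81.3 and 128.9 in DMD_KD. WT_ND replicate 9 stood far above the other wild-type libraries and yet below every mutant one. The DMD_ND change was 4.30 (SE 0.55, adjusted p = 2.97e-06) and rose to 5.11 without WT_ND replicate 9. Trem2, a lipid-sensing receptor that signals through Tyrobp, was at 0.0570, 0.133, 0.817 and 0.192 FPKM in WT_ND (28 reads in all), at 4.63, 7.60 and 20.2 in DMD_ND and at 6.32, 9.98 and 13.8 in DMD_KD. The mutant libraries were apart from wild type by a wide gap, with a change of 2.90 (SE 0.32, adjusted p = 5.39e-07) and a ratio of means of 32.1. Without WT_ND replicate 4, which held 18 of the 28 wild-type reads, that ratio was 75.6. Lgals3, the lectin galectin-3, was at 6.89, 5.28, 9.59 and 5.89 FPKM in WT_ND, at 66.9, 88.3 and 201.7 in DMD_ND and at 64.5, 70.8 and 124 in DMD_KD, a DMD_ND change of 3.62 (SE 0.26, adjusted p = 5.80e-09). For Spp1, Gpnmb, Trem2 and Lgals3 alike the highest DMD_ND library was replicate 11.

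**Figure D2:**
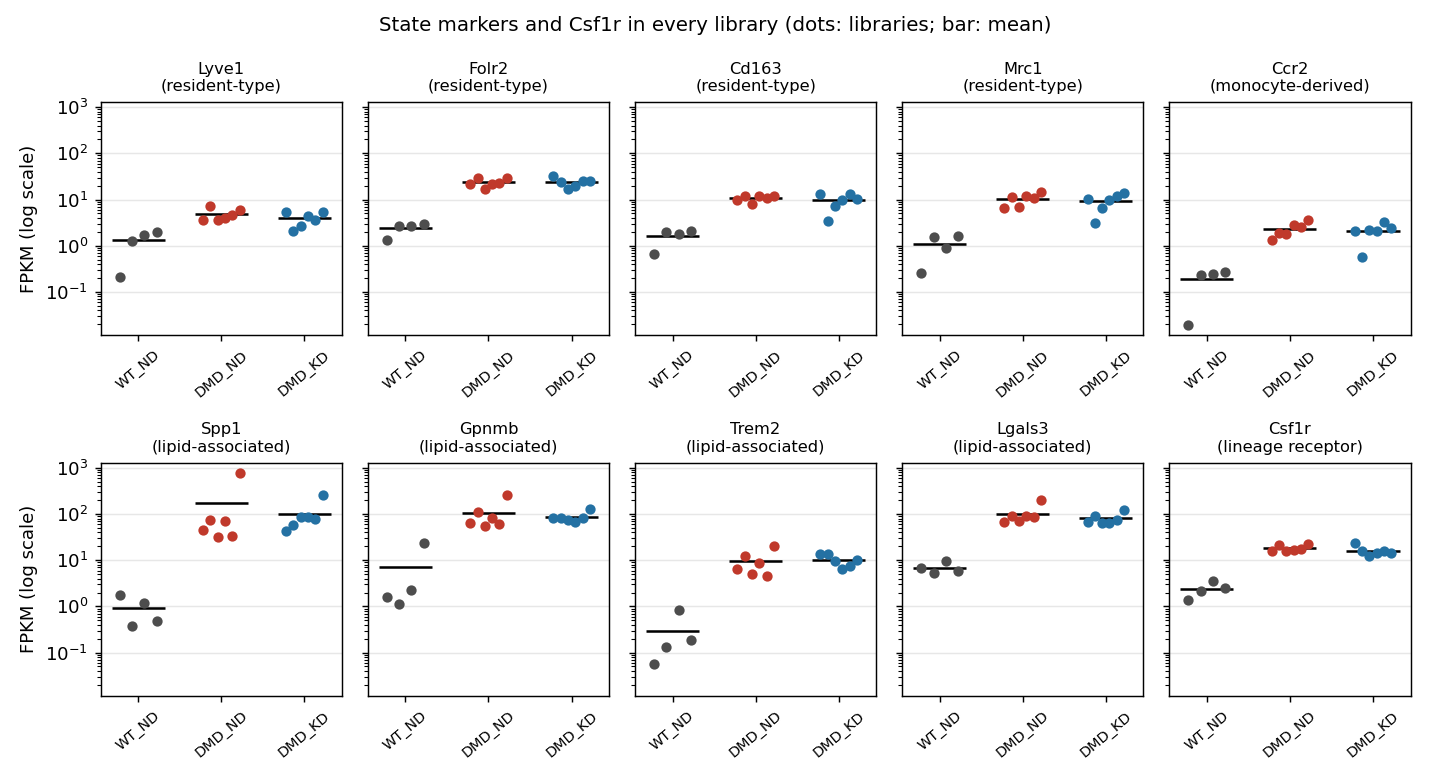
FPKM on a log scale (y axis) of the 9 state markers with values and of Csf1r in the libraries of WT_ND (n = 4), DMD_ND (n = 6) and DMD_KD (n = 6), dots for libraries and bars for means. Mutant libraries lie above all wild-type libraries in each panel, with Spp1 of DMD_ND replicate 11 at 771 and Gpnmb of WT_ND replicate 9 at 23.8.

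Macrophage identity genes rose with the state markers. Csf1r was at 1.35, 2.11, 3.51 and 2.52 FPKM in WT_ND, at 15.6, 17.0 and 22.1 in DMD_ND and at 12.1, 15.2 and 23.6 in DMD_KD, a DMD_ND change of 2.53 (SE 0.18, adjusted p = 4.28e-09). Spi1, the transcription factor, was at 0.930, 1.32, 1.45 and 0.775 FPKM in WT_ND, at 4.57, 5.88 and 10.7 in DMD_ND and at 4.25, 6.48 and 8.52 in DMD_KD, a change of 1.80 (SE 0.20, adjusted p = 6.33e-07). Cd68, a glycoprotein of phagocyte lysosomes, was at 1.42, 0.999, 1.98 and 1.20 FPKM in WT_ND, at 13.8, 19.4 and 49.3 in DMD_ND and at 16.7, 22.8 and 28.1 in DMD_KD, a change of 3.25 (SE 0.26, adjusted p = 1.71e-08). None of the 3 had a mutant library within the wild-type range, and the highest Cd68 value again came from DMD_ND replicate 11. Lyz2, lysozyme, was the most abundant gene of the set in all 3 groups, with a WT_ND mean of 13.9 ± 5.23 FPKM (SD, n = 4), a DMD_ND mean of 286.2 ± 122 (SD, n = 6) and a DMD_KD mean of 238.9 ± 42 (SD, n = 6). It belongs to a family of similar lysozyme genes, so reads fitting more than 1 of its copies make its level uncertain. The remaining tested identity genes were the pore-forming Mpeg1 (2.70), the actin-binding Aif1 (2.69) and the adhesion receptor Adgre1, known as F4/80 (1.96), all higher.

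Receptors that recognise microbes, antibodies or cell debris rose with them. All 6 tested receptors were higher in DMD_ND, with log2 changes from 1.04 to 2.88. Cd14, the co-receptor for lipopolysaccharide, went from 0.997 ± 0.267 FPKM (SD, n = 4) to 14 ± 3.43 (n = 6). Fcgr1a, the high-affinity receptor for immunoglobulin G, changed by 2.52 and Clec7a, which binds fungal glucans, by 1.90. The sialic acid lectin Siglec1 changed by 1.21, and Msr1, a scavenger receptor for modified lipoproteins, by 1.38, from 0 in WT_ND replicate 1 and at most 0.346 FPKM in the other wild-type libraries to 0.990 to 6.54 in DMD_ND. Csf2ra, the GM-CSF receptor chain, moved least by ratio, from 2.05 ± 0.231 FPKM (SD, n = 4) to 5.34 ± 0.943 (n = 6), yet its groups did not overlap.

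The signalling adaptors and the genes shared by leukocytes followed. Tyrobp (DAP12), the adaptor through which Trem2 signals, was at 3.80, 4.45, 6.19 and 5.58 FPKM in WT_ND, at 39.1, 56.7 and 86 in DMD_ND and at 37.3, 55.9 and 68.8 in DMD_KD, a DMD_ND change of 3.27 (SE 0.20, adjusted p = 1.16e-09). Fcer1g, the common gamma chain of Fc receptors, was at 0.467, 1.11, 1.07 and 0.832 FPKM in WT_ND, at 7.25, 9.95 and 14 in DMD_ND and at 6.23, 9.66 and 10.6 in DMD_KD, a change of 2.53 (SE 0.18, adjusted p = 5.80e-09). Ptprc (CD45), the phosphatase on all white blood cells, was at 0.0391, 0.236, 0.0883 and 0.237 FPKM in WT_ND, at 0.965, 1.30 and 2.31 in DMD_ND and at 0.284, 1.02 and 1.46 in DMD_KD. Its change was 1.06 (SE 0.17, adjusted p = 4.88e-05), and the lowest mutant library, DMD_KD replicate 3 at 0.284 FPKM, was close to the wild-type maximum. The other 6 tested were the lysosomal Laptm5 (2.61), the tetraspanin Cd53 (2.83), Cd48 (1.82), the actin regulator Coro1a (2.18), the cortactin relative Hcls1 (1.35) and the adhesion receptor Cd84 (0.77), all higher in DMD_ND.

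Genes that missed the filter were Cx3cr1, Marco and Cd52. Cx3cr1, the fractalkine receptor, was at 0.0317 to 0.0796 FPKM in WT_ND (2 to 4 reads), 0.320 to 1.54 in DMD_ND and 0.543 to 1.01 in DMD_KD, with no overlap between wild type and mutants. Marco, a scavenger receptor, had no reads in WT_ND, which allows up to 0.0787 to 0.134 FPKM per library for 3 reads, and at most 0.202 FPKM in any mutant library. Cd52, a small leukocyte surface peptide, had at most 8 reads in total per group in WT_ND and DMD_ND and 13 in DMD_KD, too few for any difference to be detectable.

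By mean FPKM Lyz2 came first of the 34 genes, and Marco last, in each group. In DMD_ND the order by mean FPKM went on with Spp1 (170.9), Gpnmb (106.8), Lgals3 (101.5), Tyrobp (57.9), Cd68 (23.7), Folr2 (23.5), Laptm5 (18.6) and Csf1r (18.1), and each neighbouring pair in that order overlapped in its libraries. The place of Spp1 rests on DMD_ND replicate 11, since its median of 57.9 FPKM is below the medians of Gpnmb (73.5) and Lgals3 (88.3). In DMD_KD it rests on replicate 10, without which the means were 70.8 FPKM for Spp1, 72 for Lgals3 and 78 for Gpnmb. Spp1 was 17th in WT_ND (0.941 FPKM) and second in both mutant groups, and Trem2 moved from place 26 to places 19 and 12. Cd48 and Csf2ra went the other way, from places 5 and 9 in WT_ND to 11 and 22 in DMD_ND.

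Whether the state markers moved more or less than macrophage genes in general was asked by setting each against Csf1r in the same library. In this fit of log2(FPKM + 1) differences most genes fall, because Csf1r itself rose: 0.677% of the other tested genes were called higher relative to Csf1r and 96.3% lower in DMD_ND. Of the 9 state markers tested, 3 were higher relative to Csf1r: Spp1 by 2.85 (SE 0.77, adjusted p = 0.00273), Gpnmb by 1.78 (SE 0.58, adjusted p = 0.00901) and Lgals3 by 1.09 (SE 0.27, adjusted p = 0.000102). All 3 are lipid-associated markers, but outpacing Csf1r was not particular to them. Among the other tested genes of the set, Lyz2 (1.71, adjusted p = 6.48e-09), Tyrobp (0.74, adjusted p = 0.00489) and Cd68 (0.72, adjusted p = 0.00543) were higher. Adgre1, Cd48, Cd84, Clec7a, Csf2ra, Hcls1, Msr1, Ptprc, Siglec1 and Spi1 were called lower, and the rest were not called. Lyve1 was lower by -1.14 (SE 0.24, adjusted p = 6.12e-06) and Ccr2 by -1.08 (SE 0.25, adjusted p = 3.07e-05), which is also what most genes did. Folr2 (0.32), Cd163 (-0.34), Mrc1 (-0.07) and Trem2 (0.37) were not called, with 95% intervals of -0.16 to 0.81, -0.83 to 0.16, -0.59 to 0.45 and -0.12 to 0.87.

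The pseudocount decides the call for the markers nearest to 0 in wild type. With 0.1 in place of 1, Ccr2 relative to Csf1r was 0.18 (adjusted p = 0.638) and Trem2 1.81 (adjusted p = 2.36e-07), while Spp1 (3.48), Gpnmb (1.83), Lgals3 (0.84) and Lyve1 (-0.86) kept their calls. Plain FPKM ratios show the same: Trem2 to Csf1r was 0.0421, 0.0632, 0.233 and 0.0760 in WT_ND and 0.263 to 0.916 in DMD_ND, with no overlap. Ccr2 to Csf1r was 0.0752 ± 0.0443 (SD, n = 4) in WT_ND and 0.128 ± 0.0355 (n = 6) in DMD_ND, and the libraries overlapped. Spp1 to Csf1r was 1.29, 0.178, 0.332 and 0.187 in WT_ND, against 1.91, 3.23 and 34.9 as the lowest, median and highest in DMD_ND. Lyve1 to Csf1r was 0.153, 0.601, 0.492 and 0.784 in WT_ND and 0.227 to 0.342 in DMD_ND, so WT_ND replicate 1 lay below all DMD_ND libraries and the other 3 above all of them. Lgals3 to Csf1r, whose change was called, was 5.08, 2.50, 2.73 and 2.34 in WT_ND and 4.28 to 9.13 in DMD_ND, so WT_ND replicate 1 lay within the mutant range. Gpnmb to Csf1r was 9.42 in WT_ND replicate 9, inside the DMD_ND range of 3.41 to 12.1, and 0.542 to 1.20 in the other 3. When libraries were weighted by their spread, Gpnmb relative to Csf1r was -0.26 in DMD_ND (adjusted p = 0.617) and 0.30 in DMD_KD (adjusted p = 0.593), and without WT_ND replicate 9 it was 2.55 and 2.64.

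**Figure D3:**
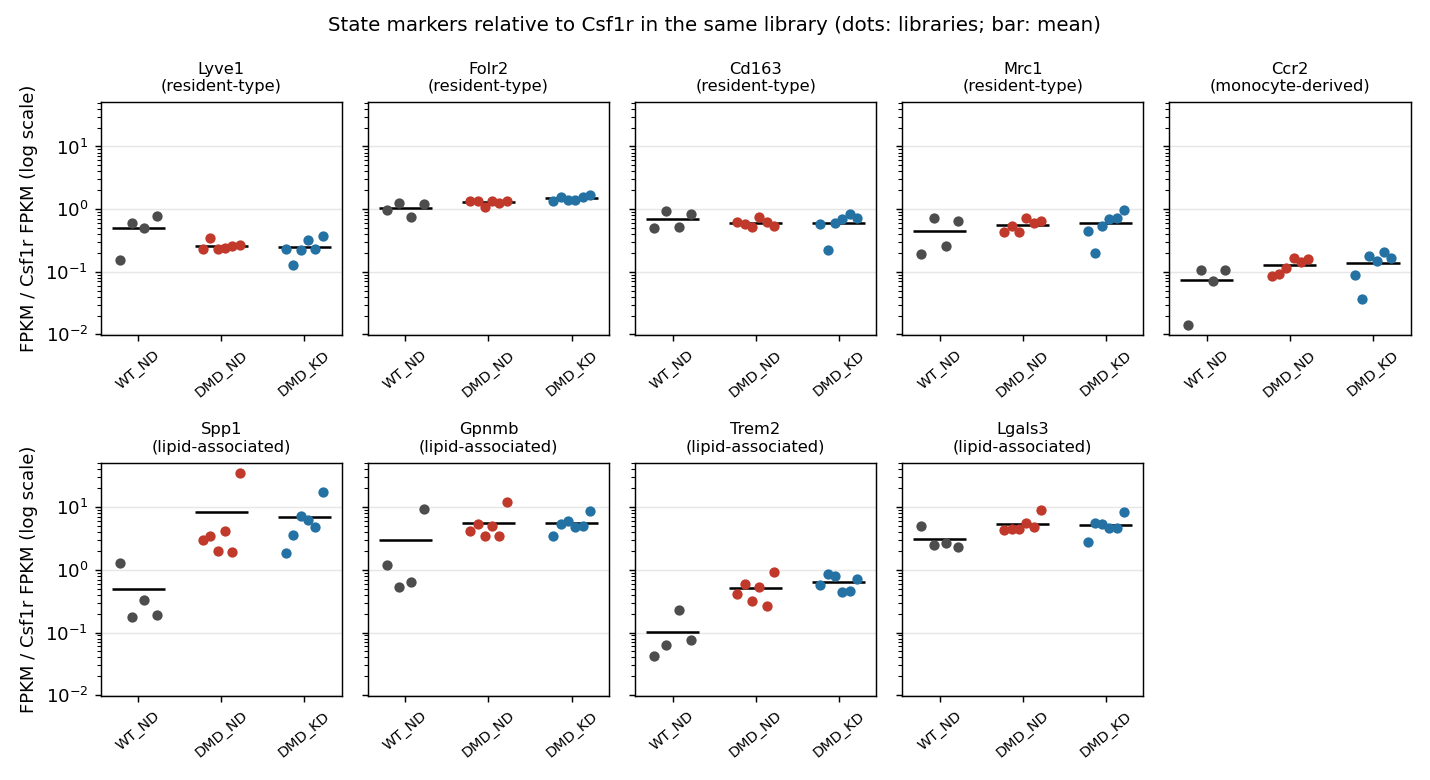
Ratio of each state marker's FPKM to that of Csf1r in the same library (y axis, log scale) by group, dots for libraries and bars for means. Trem2 and Spp1 ratios of DMD_ND lie above all WT_ND ratios, whereas those of Folr2, Cd163, Mrc1, Ccr2, Gpnmb and Lgals3 overlap.

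The choice of lineage gene mattered. Against Cd68, which rose more than Csf1r (0.72 relative to Csf1r, adjusted p = 0.00543), Lgals3 was no longer called in DMD_ND (0.37, adjusted p = 0.268) and Cd163 (-1.06, adjusted p = 0.00160) and Mrc1 (-0.79, adjusted p = 0.0186) were lower. Against Ptprc, which lies near 0 in wild type, 8 of the 9 were called, and Lyve1 (0.32) and Ccr2 (0.39) turned positive. Relative to each of the 3 reference genes and at both pseudocounts, Spp1 was called higher in both mutant groups.

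DMD_KD against WT_ND asks the same of Dmd rats on MCTKD, and both comparisons use the same 4 wild-type libraries. All 31 tested genes were higher, where 27.3% of all tested genes were. In 30 of 31 every DMD_KD library was above every WT_ND library, which held for 20% of all genes. The exception was Cd48, at 3.21 FPKM in DMD_KD replicate 3 against up to 4.84 in WT_ND. The median log2 change was 2.33, from 0.69 for Cd84 to 5.54 for Spp1. Under TPM it was 3.13, with the median gene at 0.56 and all 31 again higher. The share of higher among called genes moved from 46.7% to 92.4%, and the share among all tested genes was not counted. Relative to Csf1r, Spp1 (3.19, adjusted p = 0.00119), Gpnmb (1.87, adjusted p = 0.00666), Lgals3 (1.01, adjusted p = 0.000315), Trem2 (0.74, adjusted p = 0.00380) and Folr2 (0.51, adjusted p = 0.0400) were higher, where 0.545% of genes were. Folr2 lost that call when any of 8 single libraries was left out, with adjusted p from 0.0512 to 0.129, and at the smaller pseudocount (adjusted p = 0.0598). Outside the state markers, Lyz2 (1.70), Cd68 (0.94) and Tyrobp (0.82) were also called higher relative to Csf1r. The genes outside the state markers called lower were the same as in DMD_ND. By ratio of means, Clec7a (28.8), Siglec1 (9.9), Msr1 (8.8), Adgre1 (7.5) and Cd84 (6.80) were above Csf1r (6.77). Ptprc (6.69), Hcls1 (6.64), Spi1 (5.87), Cd48 (2.94) and Csf2ra (2.61) were below it. Lyve1 (-1.21) and Ccr2 (-1.01) were called lower, as were 96.8% of genes, and Ccr2 stood at 0.16 with the smaller pseudocount.

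The diet comparison, DMD_KD against DMD_ND, found no called gene in the set. Of the 31 tested genes, 0 were called by limma (0.00825% of all genes, 1 gene, was), and 0 relative to Csf1r (0.0248% of genes). At an unadjusted p under 0.05 there was 1 of 31, against 14.3% of all tested genes. It was Aif1, at 11.3 ± 2.62 FPKM (SD, n = 6) in DMD_ND and 8.52 ± 1.47 (n = 6) in DMD_KD, a log2 change of -0.35 (95% interval -0.69 to -0.02, adjusted p = 0.331). The log2 change was below 0 for 24 of 31 genes, against 51.1% of all tested genes, with a median of -0.14 against -0.01. In 0 of 31 genes were the mutant groups apart, against 0.842% of all genes with every DMD_KD library above and 0.635% with every one below.

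The count and the median moved with single libraries. Leaving out DMD_ND replicate 6, DMD_ND replicate 3 or DMD_KD replicate 1 gave 30, 29 and 28 of 31 below 0, each with a median of -0.21 or -0.22. Without DMD_KD replicate 7 the median was -0.08. Without DMD_KD replicate 3, 26 of 31 changes were below 0 with a median of -0.10. Without DMD_ND replicate 11, 18 of 31 changes were below 0 and the median was -0.02. With both libraries left out, a choice made after seeing the data, 14 of 31 were below 0 and the median was 0.01. Cd48 was at 11.8, 13.2 and 17.4 FPKM (lowest, median and highest) in DMD_ND and at 3.21, 9.84 and 14.6 in DMD_KD, a change of -0.54 (adjusted p = 0.352) that became -0.29 without DMD_KD replicate 3. Cd53, at 7.94, 11.3 and 19.7 in DMD_ND and 3.74, 8.67 and 12.2 in DMD_KD, had -0.48 (adjusted p = 0.362) and -0.30 without it. Mrc1 (-0.21) and Ccr2 (-0.11) were slightly positive without it, at 0.03 and 0.07. Under TPM the median gene itself moved by -0.24, so most genes were below 0 there. All 31 were below 0 under that scaling with a median of -0.41, and none was called. The share of all tested genes below 0 under TPM was not counted.

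State markers did not separate by diet either. Resident-type markers lay between -0.24 for Lyve1 and 0.01 for Folr2, and lipid-associated ones between -0.26 for Lgals3 and 0.19 for Trem2. The intervals show what could have been seen: they run from -0.35 to 0.36 for Folr2, from -0.73 to 0.24 for Lyve1, from -0.41 to 0.79 for Trem2, from -1.12 to 0.94 for Gpnmb and from -1.13 to 1.44 for Spp1. Without DMD_ND replicate 11 the Spp1 change went from 0.16 to 0.82 (adjusted p = 0.343). Relative to Csf1r, Trem2 was at 0.37 (95% interval -0.07 to 0.81, adjusted p = 0.578) and Spp1 at 0.34, and without DMD_ND replicate 11 they were at 0.55 and 0.94, none of them called.

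Within the mutant groups the genes varied together by library, and the map of deviations shows which. In DMD_ND replicate 11 the median deviation of the 31 genes from the group median was 0.64 on the log2 scale, and the exceptions included Adgre1 and Cd48, for which that library was the lowest of the group. DMD_ND replicates 3 and 6 lay low, at -0.42 and -0.47. DMD_KD replicate 10 was the highest of its group for Spp1, Gpnmb, Lgals3 and Cd68, and DMD_KD replicate 1 for Lyve1, Folr2, Cd163, Trem2, Csf1r and Adgre1. DMD_KD replicate 3 differed by gene length, with exceptions. Of the 16 longer genes it lay below every other library for 9, with a median ratio of 0.610 to the median of the rest, and of the 15 shorter genes for 3, with a median ratio of 0.943. Mrc1, with a length of 5261 bases, stood at 3.10 FPKM there against 6.61 to 13.9 in the rest, while Tyrobp, with 529 bases, was the highest of the group at 68.8. Against that pattern Csf2ra, with 6331 bases, and Hcls1, with 4153, were the highest of the group there, and the shorter Msr1 (1953 bases, ratio 0.233) and Cd53 (1699 bases, ratio 0.400) were among the low ones. Whether length or transcript breakdown plays a part in the values of that library was not tested.

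**Figure D4:**
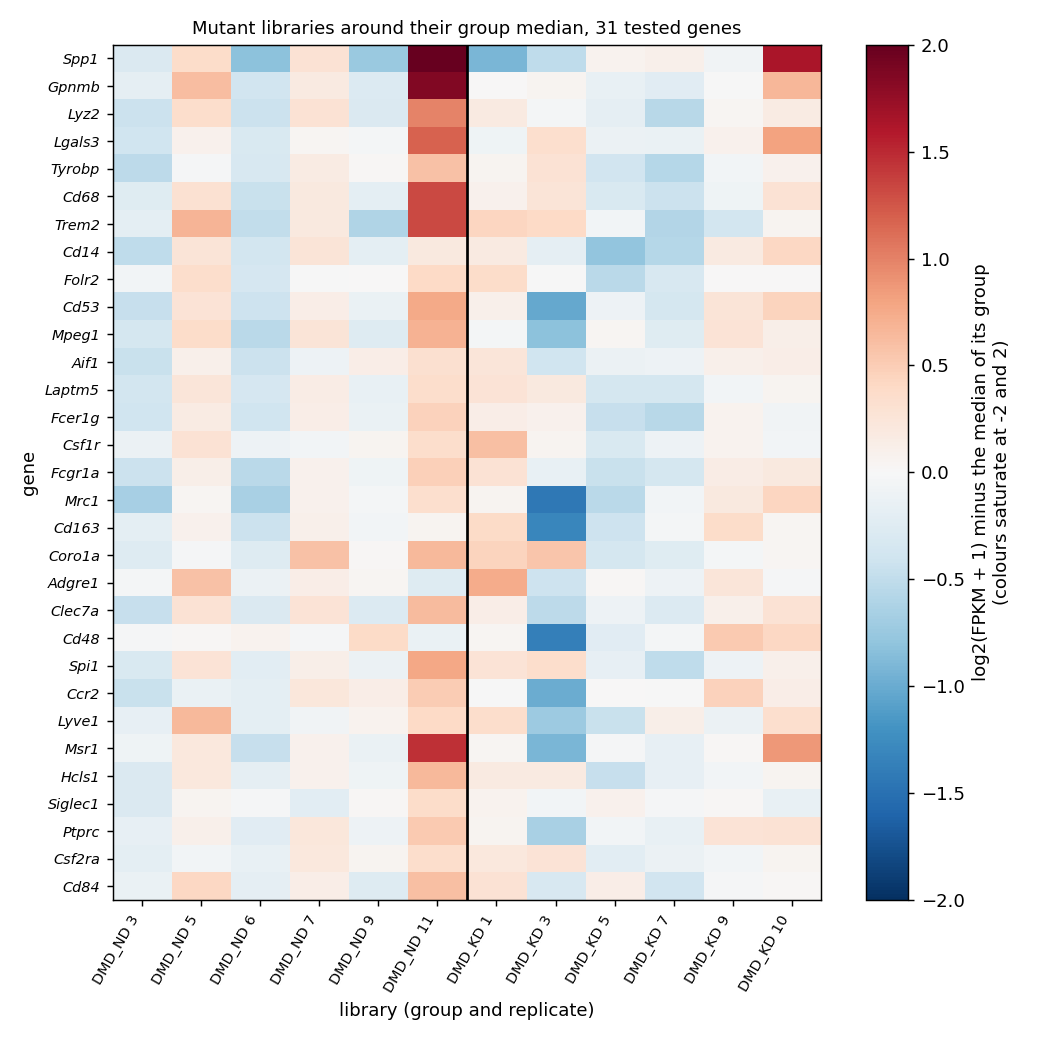
Deviation of log2(FPKM + 1) from the median of its own group (colour, red above and blue below, saturating at -2 and 2) for the 31 tested genes (rows) in the 12 mutant libraries (columns). DMD_ND replicate 11 is red in most rows, and DMD_KD replicate 3 is blue for Mrc1, Cd163, Cd48, Cd53 and Ccr2.

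Ligands and binding partners of these receptors, listed by function, also rose. Of 12 tested, 10 were higher in DMD_ND with a median log2 change of 1.73, where 31.5% of all tested genes were higher. None was lower, and Cx3cl1 and Itgav were not called. Apoe, a lipid carrier bound by Trem2, rose from a WT_ND mean of 44.9 ± 10.9 FPKM (SD, n = 4) to 788.9 ± 127 (n = 6) in DMD_ND, with 663.8 ± 171 (n = 6) in DMD_KD. Csf1, the ligand of Csf1r, went from 1.68 ± 0.357 to 10.9 ± 2.27 and 6.99 ± 1.11, and Cd44, the osteopontin and hyaluronan receptor, from 1.75 ± 0.388 to 16.5 ± 5.28 and 12.6 ± 3.16. On the diet 11 of the 12 had a log2 change below 0 and none was called, Csf1 with -0.57 and Ccl2, the ligand of Ccr2, with -1.46 (adjusted p = 0.140 each). Ccl2 was at 15.1, 24.2 and 122.1 FPKM in DMD_ND and at 6.38, 9.38 and 18.1 in DMD_KD, with overlapping libraries.

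Further genes of the same states mostly rose, and 4 lipid-handling genes were lower on the FPKM scale. All 11 tested genes of the resident-type list were higher in DMD_ND (median 1.97), led by the complement chains C1qa (3.08), C1qc (2.84) and C1qb (2.78), with Selenop, a selenium carrier, the most abundant at 223.9 ± 41.5 FPKM (SD, n = 6). All 9 myeloid signalling and integrin genes were higher (median 1.55), among them the kinase Fgr (1.87), the phosphatase Inpp5d (1.28) and the integrin chain Itgb2 (2.33). Of the monocyte-associated genes, Plac8 (2.32) and Itgax (1.20) were higher, and Itga4 was lower (-0.81, against 34.3% of all genes called lower, and not called under TPM). Of 12 further lipid-associated genes 8 were higher (median of all 12, 1.12), with the cholesterol exporter Abcg1 (2.20), the tetraspanin Cd9 (2.07) and the phosphatase Acp5 (2.09) at the smallest p. The 4 lower ones, Ctsd (-0.55), Lipa (-0.39), Lpl (-0.80) and Nr1h3 (-0.56), are also expressed by muscle fibres or other cells, and their sign turned under TPM scaling (0.46, 0.57, 0.20 and 0.36). Of all tested genes 31.5% were called higher and 34.3% lower in DMD_ND, so 4 of 12 lower was near the share of all genes. None of the genes in these lists was called on the diet.

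Markers of other cells changed beside the macrophage genes, and their part in the results was not tested. The 6 fibroblast markers were all higher, summing to 82.2 to 210.6 FPKM in WT_ND, 1276 to 2012 in DMD_ND and 925 to 1466 in DMD_KD. Muscle fibre markers were lower for 7 of 8 in DMD_ND (2 of 8 under TPM, where Mylpf was higher at 0.73). Among 6 endothelial markers Cdh5 and Kdr were lower (neither under TPM, where 4 others were higher). The 8 T cell markers summed to 0.923 to 1.28 FPKM in WT_ND, 4.18 to 7.31 in DMD_ND and 3.58 to 6.09 in DMD_KD, with all 3 tested members higher in DMD_ND and Cd3d at 0 in WT_ND. The 8 neutrophil markers summed to 1.21 to 2.41, 4.11 to 14.4 and 2.38 to 15 FPKM in the same order, with 3 of 3 tested higher and Camp and Ltf at 0 in WT_ND. Of the mast cell markers 4 of 5 tested were higher, of NK cells 2 of 2, of B and plasma cells 1 of 1 (Jchain) and of dendritic cells 1 of 3 (Batf3), with Klrb1 and Pax5 at 0 in WT_ND. Under TPM 5 of 5 mast cell and 3 of 3 dendritic markers were higher. On the FPKM scale 31.5% of all tested genes were called higher in DMD_ND and 34.3% lower. The dendritic 1 of 3 higher and the endothelial 2 of 6 lower were near those shares. Summed over its 8 genes, the macrophage identity group came to 242 to 623.4 FPKM in DMD_ND, of which Lyz2, a gene that neutrophils also express, was the larger share. The other 7 identity genes summed to 54.5 to 119.9 FPKM in DMD_ND and 55.2 to 83.5 in DMD_KD, above the sums of the T cell and neutrophil markers. Such sums depend on which genes were listed, so they do not rank cell types, and cell numbers were not tested.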

How the data were processed

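Poly(A) RNA of frozen tibialis anterior was sequenced, per the labels' protocols. The values are gene-level FPKM as deposited by the authors; reads were aligned with HISAT2 2.0.5 and counted with featureCounts 1.5.0-p3 on mRatBN7.2, per the submitters' processing notes. No source used here gives the strand setting or how reads fitting several genes were treated. Multiplied by gene length, all values were whole multiples of 1 read (within 0.05), so reads per library and 3-read floors were recovered. Floors cover counting error only.

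Here log2(FPKM + 1) was fitted with limma 3.58.1 in R 4.3.3 (means of 3 groups over 16 libraries, 13 residual degrees of freedom, moderated variance with trend and robust settings) for 12119 genes, with two-sided p-values adjusted by Benjamini-Hochberg over all of them and a threshold of 0.05. A second fit used each gene minus Csf1r in the same library. The code was tested on simulated data with known fold changes. Groups come from the labels. Libraries of a group differed by more than sampling noise in every pair: chi-square over its degrees of freedom was at least 11.7.

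Alternatives were a pseudocount of 0.1, other filters, TPM scaling, library weights, other reference genes, a replicate block, 2-group fits and leaving out each library. The genes and lists were chosen with earlier results of these data known. All 35 genes are accounted for. The 10 state markers and Csf1r, Cd68, Ptprc, Tyrobp, Fcer1g and Spi1 are given in full, and of each further list the 3 with the smallest p in DMD_ND against WT_ND and the most abundant one could be named. Genes named beyond that, such as Ccl2, Itga4, Ctsd, Lipa, Lpl, Nr1h3, Cdh5 and Kdr, were picked after their values were seen.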

Additional observations from a re-analysis of the deposited data

Results flagged for a closer look

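In 14 of 101 sets of libraries, each a gene within a group, a library stood apart from the others by more than Dixon's 95% limit. Both the highest and the lowest library were tried, and in every flagged set it was the highest. About 5% of sets would be flagged if sets were independent and normally distributed, but genes here share the same libraries. DMD_ND replicate 11 stood apart for 6 genes: Spp1 at 771 FPKM (others 31.7 to 73.4), Gpnmb at 266.2 (55.5 to 112.2), Lgals3 at 201.7 (66.9 to 93.2), Cd68 at 49.3 (13.8 to 24.1), Msr1 at 6.54 (0.990 to 2.15) and Cx3cr1 at 1.54 (0.320 to 0.716). Spp1, Gpnmb and Lgals3 are lipid-associated markers, whereas Cd68, Msr1 and Cx3cr1 are not. The lipid-associated Trem2, at 20.2 FPKM in that library and 12.6 in DMD_ND replicate 5, was not flagged. For the resident-type Lyve1, Folr2, Cd163 and Mrc1 no DMD_ND library stood apart in this sense either. DMD_KD replicate 10 stood apart for Spp1 at 257.3 FPKM (43.4 to 88.1), Gpnmb at 128.9 (69.1 to 84.3) and Cx3cr1 at 1.01 (0.543 to 0.709).

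In wild type, Gpnmb stood at 23.75 FPKM in WT_ND replicate 9 and at 1.14 to 2.23 in the others. Csf1r reached 23.6 FPKM in DMD_KD replicate 1 (others 12.1 to 16.1), and Cd48 17.4 in DMD_ND replicate 9 (others 11.8 to 13.9). Marco was at 0.202 FPKM in DMD_ND replicate 9 (others up to 0.0585) and at 0.0657 in DMD_KD replicate 5 (others 0), the latter from 3 reads.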

How the results depend on the processing

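All 31 tested genes were higher in both genotype comparisons, and 0 were called on the diet, with TPM scaling, library weights, the replicate block and each library left out (31 to 31, 31 to 31 and 0 to 0). Only 21 genes remained to be tested at a mean of at least 5 FPKM, all higher, and without a filter 32 were higher. The 5 state marker calls relative to Csf1r in DMD_ND stayed at 5 to 5 when single libraries were left out. The 7 in DMD_KD stayed at 6 to 7 (0 to 0 on the diet). At a mean of at least 5 FPKM, where 7 of the 9 markers were tested, 3 were called in DMD_ND, and with Ptprc as reference 8 were. TPM does not alter a plain FPKM ratio within a library. The fit relative to Csf1r adds a pseudocount, so its values can shift with scaling, and it was not run under TPM.

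Some directions relative to the reference turned, called or not, and the cause was not tested. With a pseudocount of 0.1, Ccr2 was 0.18 and Mrc1 0.38 in DMD_ND and 0.16 and 0.33 in DMD_KD, and with library weights Gpnmb was -0.26 in DMD_ND. Against Cd68, Folr2 was -0.39 and Trem2 -0.35 in DMD_ND and -0.43 and -0.20 in DMD_KD. Against Ptprc, Cd163 was 1.13 and 1.18, Mrc1 1.396 and 1.47, Lyve1 0.32 and 0.37, and Ccr2 0.39 and 0.56 in DMD_ND and DMD_KD. In combinations added after seeing the data, Cd68 with a pseudocount of 0.1 gave Lgals3 -0.10 and -0.42 and Folr2 -0.66 in DMD_KD, and Ptprc with 0.1 gave Ccr2 0.47 and 0.80 and Mrc1 0.97 in DMD_KD.

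DMD_KD and DMD_ND share replicate numbers 3, 5, 7 and 9, but deviations of same-numbered libraries correlated at only 0.086, 0.016, 0.019 and 0.23, while pairs with wild type ran from -0.656 (DMD_KD and WT_ND replicates 3) to 0.407 (replicates 9), and 2 of 8 mutant libraries correlated best with their own number, so the numbers were not taken as pairs. With the replicate block the state marker calls relative to Csf1r went to 3 in DMD_ND and 4 in DMD_KD. Gpnmb (0.92, adjusted p = 0.0513) and Lgals3 (0.84, adjusted p = 0.0771) were no longer called in DMD_ND. Lgals3 (0.78), Trem2 (0.62) and Folr2 (0.37) were no longer called in DMD_KD. Means without single libraries and sums without Lyz2 were also added after seeing the data. At these depths genes of a few reads (Marco, Cd52 and, in wild type, Ccr2, Trem2 and Ptprc) are the least certain.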
